A study of Mus musculus with 6 samples.

Results

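Retinoid signalling in lung endothelial cells was examined through 9 genes. These were the retinoic acid receptor genes Rara, Rarb and Rarg, and the retinoid X receptor genes Rxra, Rxrb and Rxrg. The others were the corepressor genes Ncor1 and Nrip1, and Rarres1, known in human cells for its induction by retinoids. The genes were taken by symbol from a count table of 24951 genes, and all 9 were present. RNA was sequenced from lung cells of mice at postnatal day 5, selected for CD31, a surface protein of endothelial cells. The 3 mutant libraries, labelled Smad4 iECKO, came from pups with floxed Smad4 alleles (Smad4 f/f) and the Cdh5-CreERT2 transgene, in which the promoter of the endothelial cadherin gene drives a tamoxifen-inducible Cre recombinase. The 3 control libraries, labelled wildtype, came from Smad4 f/f pups without Cre, so every pup carried the floxed alleles and no group had Cre with intact Smad4. The labels give no tamoxifen schedule and describe the libraries as independent biological samples, in a sentence that names the mice HHTf/f and HHTiECKO instead. The study title names decreased retinoic acid signalling in endothelial cells and pulmonary arteriovenous malformations, and the comparison asks how the receptors, their cofactors and Rarres1 differ after endothelial deletion of Smad4.

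As background, retinoic acid is made from vitamin A and enters the nucleus, where it binds a retinoic acid receptor paired with a retinoid X receptor on DNA. Without ligand the pair holds corepressor complexes at target genes, and with ligand it exchanges them for coactivators. SMAD4 is the partner shared by the receptor-activated SMAD proteins of the BMP and TGF-beta pathways. In the lung, retinoic acid is known for its part in early lung formation and in the growth of alveoli after birth.

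Reads assigned to genes ranged between 16041786 and 20172318 in mutant libraries and between 14093564 and 21113926 in control libraries. Smad4, the deleted gene, measured 88.8, 72.9 and 94.2 CPM (counts scaled to library size by TMM factors) in mutant replicates 1, 2 and 3, against 188, 177 and 181 CPM in control replicates 1, 2 and 3. It averaged 85.3 ± 11.1 CPM in mutant and 182 ± 5.74 CPM in control libraries (SD, n = 3 each, adjusted p = 0.000604 by edgeR's quasi-likelihood test), so that transcript of the gene was still counted in the mutants. All 10 general markers of endothelium were detected, at a summed 9192 to 9524 CPM in mutant and 8765 to 9739 CPM in control libraries. Of the 10, 7 had a positive and 3 a negative log2 fold change. For 5 of the 10 the groups did not overlap, as for 20.6% of all tested genes. At an adjusted p under 0.05, 1 was called, where 3.27% of all tested genes were. That was Tek, the angiopoietin receptor gene, which fell to 542 ± 45.4 CPM in mutant libraries, against 765 ± 29.8 CPM in control libraries (SD, n = 3 each, log2 fold change -0.50, edgeR adjusted p = 0.0128). Its call ended without mutant replicate 2 (adjusted p = 0.0760) or control replicate 3 (0.0540). Transcripts that mark other cell types were counted too. Markers summed to 3114 to 3557 CPM in mutant and 2379 to 4400 CPM in control libraries for epithelium, and to 1259.7 to 1908 CPM in mutant and 1076 to 1672 CPM in control libraries for fibroblasts. Of the 9 further marker lists, the sums did not overlap between groups for lymphatic endothelium, lymphocytes and red cells, and their part in the results below was not tested.

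In the mutants Rarg was lower and Rarres1 was higher, while no test was passed by the other receptor and corepressor genes. Rarg, a retinoic acid receptor gene, stood 1.30-fold lower, and Rarres1, a gene known in human cells for its induction by retinoids, stood 2.36-fold higher. Rarb, itself a classic target of retinoic acid, was 1.41-fold lower by its estimate but did not pass the test. Rara, Rxra, Rxrb, Ncor1 and Nrip1 each had a 95% interval of the log2 fold change that included 0. Of the 9 genes, 8 passed the filter on low counts, and Rxrg did not. Of those 8, 1 fell, 1 rose and 6 did not pass at an adjusted p under 0.05, where 3.27% of the 14934 genes tested passed. Both stayed called with DESeq2's size factors in edgeR (3.26% of all tested genes passed), upper-quartile factors (3.27%), no low-count filter (2.88%), DESeq2 (5.16%) and limma-voom (2.96%). Neither was called without mutant replicate 1 (2.38% of all tested genes passed), mutant replicate 2 (1.39%) or control replicate 2 (1.94%). Rarres1 alone was called without mutant replicate 3 (2.69%), control replicate 1 (2.84%) or control replicate 3 (2.16%), and with sex as a covariate (2.97%). For 3 of the 8 (Rarb, Rarg and Rarres1) the groups had no overlap, as for 20.6% of all tested genes. In these bulk libraries, fewer cells of a type and less RNA per cell cannot be told apart.

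**Figure D1:**
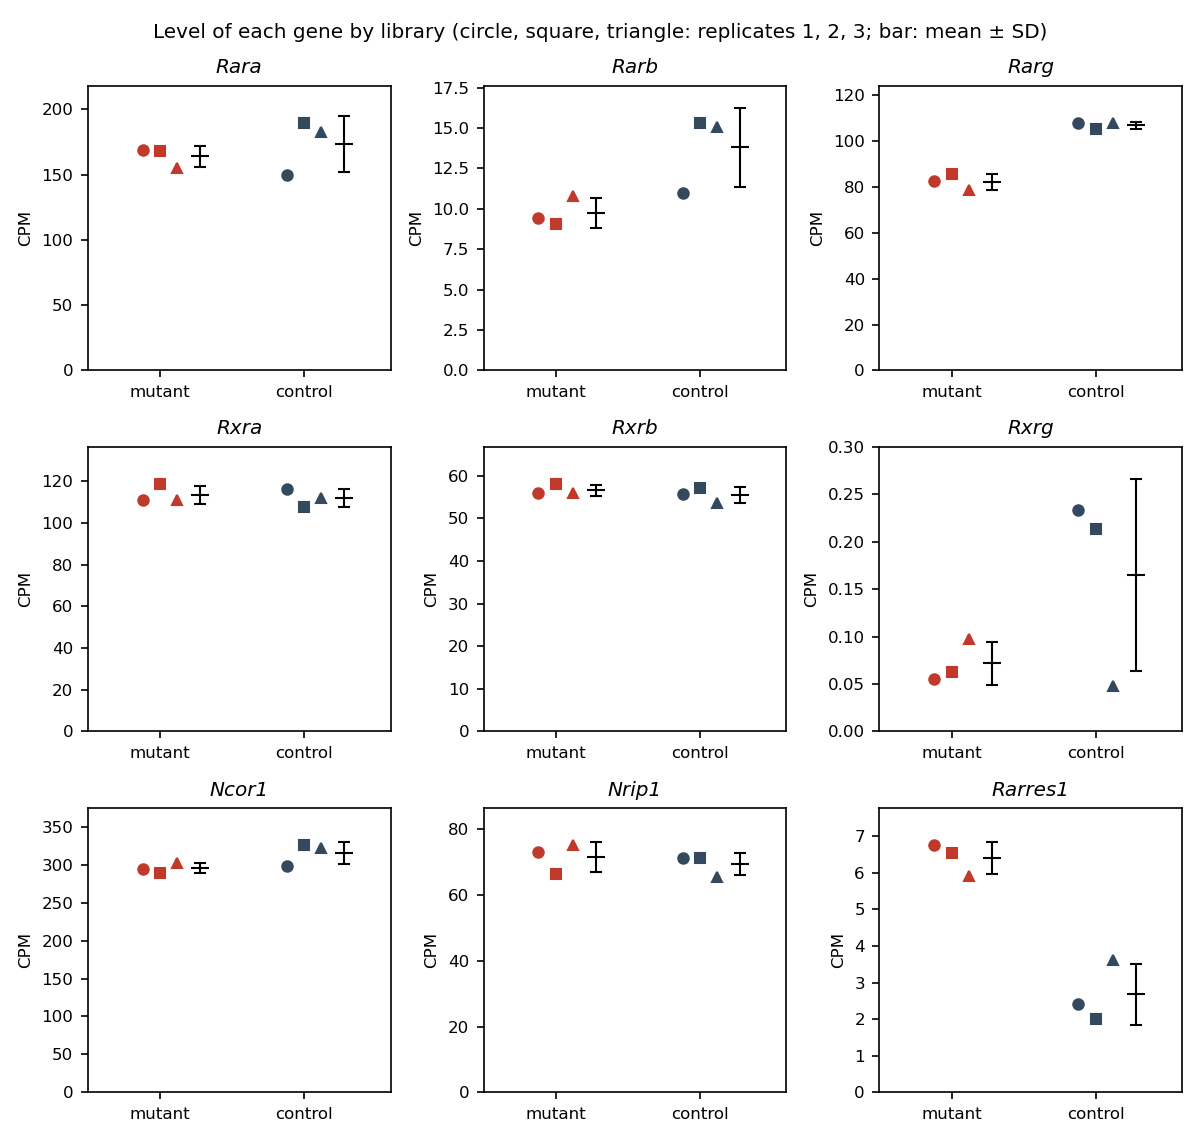
Level of each of the 9 genes in CPM (y axis, from 0) by library, with mutant libraries in red on the left and control libraries in dark blue on the right, and the mean ± SD as a bar (n = 3 each). Rarg and Rarb lie lower and Rarres1 higher in the 3 mutant libraries with no overlap, and Rxrg stays at 0.233 CPM or less throughout.

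Rarg lies on chromosome 15 from 102234938 to 102257517 on the minus strand (ENSMUSG00000001288.15, GRCm38). It encodes retinoic acid receptor gamma, a ligand-dependent transcription factor. Its level was 82.6, 85.6 and 78.4 CPM in mutant replicates 1, 2 and 3, against 108, 105 and 108 CPM in control replicates 1, 2 and 3. Every mutant library was below every control library, and the 3 control libraries lay closer together than the mutants. The group means were 82.2 ± 3.58 CPM in mutant and 106.9 ± 1.505 CPM in control libraries (SD, n = 3 each). On the log2 scale Rarg fell by 0.38 (SE 0.08), with a 95% interval of -0.56 to -0.20 and an edgeR adjusted p = 0.0314. The size of the decrease held with any library left out, at a log2 fold change of -0.41 to -0.35, but the call did not. Without mutant replicate 1, 2 or 3 the adjusted p was 0.107, 0.0747 or 0.126, and without control replicate 1, 2 or 3 it was 0.0706, 0.0654 or 0.0997. The call also ended with sex as a covariate (adjusted p = 0.0616). DESeq2 kept it (adjusted p = 0.00429), as did limma-voom (0.0360).

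The RefSeq promoter of Rarg at its upstream start is shown because Rarg was the receptor gene that passed the test after endothelial deletion of Smad4. The window runs from 250 bases before the start to 50 bases after it. Capitals mark matches to GGAGCC, a GC-rich sequence of the kind SMAD4 is known to bind, and to the core motif of retinoid receptors on either strand.
Rarg, chr15:102257473-102257772, minus strand, GRCm38.p6: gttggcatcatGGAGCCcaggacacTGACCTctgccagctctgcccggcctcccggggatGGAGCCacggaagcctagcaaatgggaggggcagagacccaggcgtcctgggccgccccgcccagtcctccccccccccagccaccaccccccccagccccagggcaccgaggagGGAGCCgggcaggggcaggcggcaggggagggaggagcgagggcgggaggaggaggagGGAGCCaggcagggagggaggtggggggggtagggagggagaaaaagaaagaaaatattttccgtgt
The window holds 4 matches to GGAGCC and 1 to a core motif, with no repeat of the core. The core was searched as AGGTCA, the consensus, and in 3 further forms. These were AGTTCA, found in the Rarb element, and GGTTCA, found there as well, together with GGGTCA. That last form occurs in windows of Rara, Rarb, Rxra, Rxrg, Nrip1 and Rarres1. The SMAD-binding core CAGAC and a further GC-rich sequence, GGCGCC, were searched too and are absent from this window. They occur in 49.6% and 11.9% of all windows. Rarg has a second window, at a downstream start, which is not shown. That window holds 1 match to CAGAC, 0 to GGAGCC, 0 to GGCGCC and 0 to a core motif. GGAGCC occurs in 30.8% and a core motif in 43.7% of 32817 promoter windows of the same length, both strands included. A match is a description of the letters and not evidence of binding.

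Rarb lies on chromosome 14 from 16430839 to 16819156 on the minus strand (ENSMUSG00000017491.9). It encodes retinoic acid receptor beta, whose transcription is switched on by retinoic acid through a response element in its own promoter. Its level was 9.44, 9.04 and 10.8 CPM in mutant replicates 1, 2 and 3, against 11.01, 15.3 and 15.1 CPM in control replicates 1, 2 and 3. The groups did not overlap, but control replicate 1 was close to the mutants and far from the other controls. The means were 9.75 ± 0.911 CPM in mutant and 13.8 ± 2.42 CPM in control libraries (SD, n = 3 each). Rarb was not called, at a log2 fold change of -0.50 (SE 0.17, edgeR unadjusted p = 0.0145, adjusted p = 0.190). No alternative called it, and the lowest adjusted p, without control replicate 1, was 0.0643 at a log2 fold change of -0.64.

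The Rarb promoter is shown for its response element. Capitals mark a direct repeat of the core motif with 5 bases between the copies, the textbook form of a retinoic acid response element.
Rarb, chr14:16575427-16575726, minus strand, GRCm38.p6: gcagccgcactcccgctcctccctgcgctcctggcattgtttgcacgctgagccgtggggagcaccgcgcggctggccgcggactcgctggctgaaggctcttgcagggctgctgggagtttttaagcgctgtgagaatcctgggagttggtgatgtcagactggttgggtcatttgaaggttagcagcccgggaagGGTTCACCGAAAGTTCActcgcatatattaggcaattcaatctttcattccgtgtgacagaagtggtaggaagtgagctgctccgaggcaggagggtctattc
The repeat, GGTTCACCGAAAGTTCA, lies 53 to 37 bases before the start. The window also holds 1 core motif further upstream and 1 match to CAGAC, both in lower case. Copies of the core inside a repeat also count as core motifs. Repeats of the 4 core motifs with a spacer of 5 bases occur in 0.0975% of the 32817 windows, those with a spacer of 1 base in 0.222% and those with a spacer of 2 bases in 0.268%. The forms searched included GGTTCA and AGTTCA, the copies in this element, so the match in Rarb was fixed in advance and is no result. No other window among the 18 promoter windows of the 9 genes held a repeat of any of these spacers.

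Part of the Rarb count may be shared with a neighbour. In GENCODE M21, 34.1% of the exon length of Rarb overlaps exons of Top2b, a DNA topoisomerase gene on the opposite strand. In RefSeq's gene table the 2 genes do not overlap and lie 51 bases apart. Which annotation was used, and whether strand was used in counting, is not given in the sources used here. Top2b stood at 370.4 ± 15.8 CPM in mutant and 354 ± 5.35 CPM in control libraries (SD, n = 3 each), far above Rarb, with a log2 fold change of 0.07, opposite in sign to that of Rarb (edgeR adjusted p = 0.761). Its part in the Rarb value was not tested.

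Rara lies on chromosome 11 from 98927818 to 98974942 on the plus strand (ENSMUSG00000037992.16) and encodes retinoic acid receptor alpha, a receptor present in most tissues. It measured 169, 168 and 155 CPM in mutant replicates 1, 2 and 3, against 149, 189.6 and 182 CPM in control replicates 1, 2 and 3. The mutant libraries lay inside the range of the controls, whose replicate 1 was the lowest of all 6 libraries. For Rara the log2 fold change was -0.08, with a 95% interval of -0.31 to 0.14 (edgeR adjusted p = 0.770). The controls spread widely for Rara (174 ± 21.4 CPM) compared with the mutants (164 ± 7.81 CPM, SD, n = 3 each).

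Among the receptors of retinoic acid, Rara made up the largest share of transcript in every library. On the scale of CPM per kilobase of exon, Rara held 63.5% to 64.7% of the summed level of Rara, Rarb and Rarg in mutant libraries and 55.6% to 61.2% in control libraries. Rarg held 32.4% to 33.3% in mutant and 34.8% to 41.1% in control libraries, and Rarb 2.85% to 3.66% in mutant and 3.39% to 4.10% in control libraries. The summed level was 56.0 to 60.3 CPM per kilobase in mutant and 61.6 to 71.0 CPM per kilobase in control libraries. These shares describe the libraries, and no test was made on them.

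The retinoid X receptors form the other member of each receptor pair and also pair with thyroid, vitamin D and PPAR receptors. Rxra, on chromosome 2 from 27676440 to 27762957, measured 111, 119 and 111 CPM in mutant replicates 1, 2 and 3, against 116, 107 and 112 CPM in control replicates 1, 2 and 3. Rxrb, on chromosome 17 from 34031812 to 34038399, measured 55.9, 58.1 and 55.9 CPM in mutant replicates 1, 2 and 3, against 55.7, 57.2 and 53.6 CPM in control replicates 1, 2 and 3. For both genes the groups overlapped and the libraries lay close together. Neither gene passed the test, with a log2 fold change of 0.02 for Rxra, with a 95% interval of -0.16 to 0.20 (edgeR adjusted p = 0.942), and 0.03 for Rxrb, with an interval of -0.16 to 0.22 (adjusted p = 0.915).

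Rxrg, on chromosome 1 from 167598384 to 167639623, was near the limit of detection. It had 1, 1 and 2 counts in mutant replicates 1, 2 and 3, against 5, 3 and 1 counts in control replicates 1, 2 and 3. All but 1 of these counts are at or under a floor of 3 counts per library, so no fold is given, and a difference was not detectable at this depth. Rxra held 59.0% to 59.7% of the summed level per kilobase of the 3 retinoid X receptor genes in mutant libraries and 57.6% to 60.3% in control libraries. Rxrb held nearly all of the remainder.

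Neither corepressor gene passed the test. Ncor1, on chromosome 11 from 62316426 to 62458541, encodes a large scaffold that brings histone deacetylase 3 to receptors without ligand. It measured 294, 289 and 302 CPM in mutant replicates 1, 2 and 3, against 298, 326 and 321 CPM in control replicates 1, 2 and 3. Mutant replicate 3 was above control replicate 1, so the groups overlapped. Its log2 fold change came to -0.09, with a 95% interval of -0.27 to 0.08 (edgeR adjusted p = 0.643).

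Nrip1, on chromosome 16 from 76287400 to 76373827, encodes RIP140, a corepressor that binds nuclear receptors when their ligand is bound and is itself induced by retinoic acid in cultured cells. It measured 73.1, 66.2 and 75.1 CPM in mutant replicates 1, 2 and 3, against 71.3, 71.3 and 65.5 CPM in control replicates 1, 2 and 3. The libraries of both groups were interleaved. For Nrip1 the log2 fold change was 0.04, with a 95% interval of -0.16 to 0.25 (edgeR adjusted p = 0.878).

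**Figure D2:**
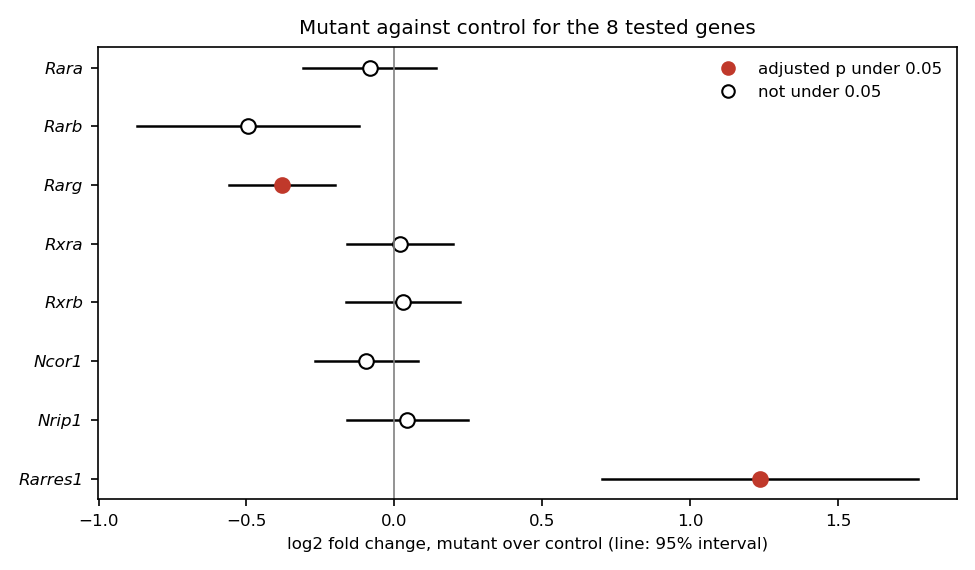
Log2 fold change of mutant over control (x axis) for the 8 tested genes with the 95% interval as a line, filled red where the edgeR adjusted p was under 0.05. Rarg at -0.38 and Rarres1 at 1.24 are filled, and the intervals of Rara, Rxra, Rxrb, Ncor1 and Nrip1 include 0.

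Rarres1, on chromosome 3 from 67478972 to 67515523 on the minus strand (ENSMUSG00000049404.7), had the largest change of the 8 tested genes. It encodes a membrane protein related to the carboxypeptidase inhibitor latexin, and was named in human cells as a gene that responds to a retinoic acid receptor agonist. Its level was 6.75, 6.53 and 5.90 CPM in mutant replicates 1, 2 and 3, against 2.43, 1.99 and 3.62 CPM in control replicates 1, 2 and 3. Every mutant library was above every control library, and the controls spread more than the mutants. The values rest on 123, 104 and 121 counts in mutant replicates 1, 2 and 3, against 52, 28 and 75 counts in control replicates 1, 2 and 3.

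The means of Rarres1 were 6.39 ± 0.441 CPM in mutant and 2.68 ± 0.840 CPM in control libraries (SD, n = 3 each). Rarres1 rose by 1.24 on the log2 scale (SE 0.24, edgeR adjusted p = 0.0198), a level 2.36-fold higher with a 95% interval of 1.63 to 3.41. The call ended without mutant replicate 1 (adjusted p = 0.0679), mutant replicate 2 (0.105) or control replicate 2 (0.0654), and the log2 fold change lay between 1.08 and 1.52 in the 6 fits without a library. The highest, 1.52, was without control replicate 3, the control library with the most Rarres1. DESeq2 (adjusted p = 0.000551) and limma-voom (0.0215) also called it.

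Marker sums are given beside Rarres1. The 6 lymphatic endothelial markers summed to 1544, 1524 and 1491 CPM in mutant replicates 1, 2 and 3, against 1302, 1131 and 1350 CPM in control replicates 1, 2 and 3. These sums did not overlap between groups, but Lyve1 made up most of each sum. It was the only marker of the list without overlap between groups. Within each group of 3 libraries the sums ranked the libraries in the same order as Rarres1, which no other marker list did in both groups. Lyve1 alone ranked them otherwise, and an order of 3 libraries picked from several lists cannot decide a link. Of the 5 tested, 1 was called: Lyve1, a hyaluronan receptor gene, rose by 0.44 on the log2 scale (edgeR adjusted p = 0.0166). The call of Lyve1 ended without mutant replicate 1 (adjusted p = 0.0700), mutant replicate 2 (0.0904) or control replicate 2 (0.0622). The calls of Rarres1 and Rarg ended in these fits as well. Fewer genes were called there over the whole table, at 361, 211 and 293, against 488 with all libraries. The other 4 had log2 fold changes of 0.15 for Flt4, 0.07 for Pdpn, -0.13 for Prox1 and -0.29 for Mmrn1, with edgeR adjusted p-values of 0.520 to 0.924, and Ccl21a was at 0 in every library. Control replicate 3, with the most Rarres1 among controls, had the highest sums of the 3 controls for lymphatic endothelial, general endothelial and lymphocyte markers. It had the lowest sums of all 6 libraries for epithelium, fibroblasts, pericytes, mesothelium and macrophages. Mesothelial markers summed to 54.0 to 58.2 CPM in mutant and 35.0 to 76.4 CPM in control libraries. The part of lymphatic cells in the Rarres1 result was not tested.

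**Figure D3:**
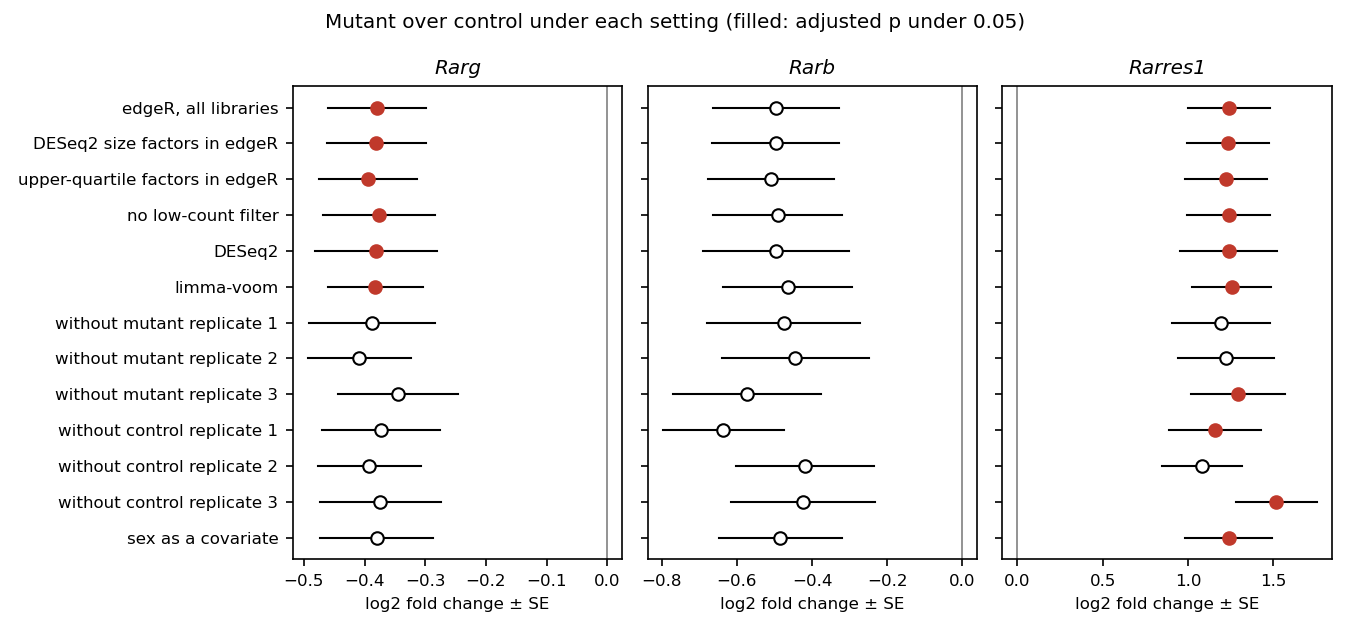
Log2 fold change of mutant over control ± SE (x axes, which differ in scale) for Rarg, Rarb and Rarres1 under edgeR on all libraries and 12 alternatives, filled red where the adjusted p was under 0.05. The direction is the same in every row, Rarg is called in none of the 6 fits without a library, and Rarb is called in none of the rows.

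The Rarres1 promoter is shown because this gene had the largest change. Capitals mark GGCGCC, a further GC-rich sequence of the kind SMAD4 binds, and the core motif of retinoid receptors on either strand.
Rarres1, chr3:67515474-67515773, minus strand, GRCm38.p6: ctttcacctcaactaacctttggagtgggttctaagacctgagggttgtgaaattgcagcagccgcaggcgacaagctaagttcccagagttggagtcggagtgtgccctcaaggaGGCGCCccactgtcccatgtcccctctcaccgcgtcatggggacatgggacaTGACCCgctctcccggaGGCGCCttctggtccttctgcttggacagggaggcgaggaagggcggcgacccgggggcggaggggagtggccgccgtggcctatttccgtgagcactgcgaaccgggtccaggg
It holds 2 matches to GGCGCC, which occurs in 11.9% of all windows, and 1 core motif. That motif is GGGTCA on the opposite strand and appears as TGACCC on the strand printed. No repeat of the core motif with a spacer of 1, 2 or 5 bases was found in this window, which says nothing of elements elsewhere. CAGAC and GGAGCC were searched too and are absent from the Rarres1 window. Genes that were not called also hold the GC-rich sequences. GGCGCC lies in both Rxrb windows, and GGAGCC in windows of Rara, Rxra, Rxrb, Rxrg, Ncor1 and Nrip1.

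The neighbours of Rarres1 were then examined. Lxn, which encodes latexin, lies 15045 bases away inside the span of Gfm1, a mitochondrial elongation factor gene, and was added for its relation to Rarres1 outside the naming rule. Lxn measured 122, 118 and 116 CPM in mutant replicates 1, 2 and 3, against 77.6, 64.9 and 78.8 CPM in control replicates 1, 2 and 3. The mutant libraries were all above the controls. Lxn rose by 0.68 on the log2 scale (SE 0.10, edgeR adjusted p = 0.00378), and its call held in all 13 alternatives with an adjusted p of at most 0.0261. Gfm1, which shares 63 exon bases with Lxn on the opposite strand, stood at 54.3 ± 4.204 CPM in mutant and 46.8 ± 6.53 CPM in control libraries (SD, n = 3 each, adjusted p = 0.482). Mfsd1, the neighbour on the other side and a lysosomal transporter gene, stood at 108 ± 6.94 CPM in mutant and 93.0 ± 10.6 CPM in control libraries (SD, n = 3 each, adjusted p = 0.410).

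**Figure D4:**
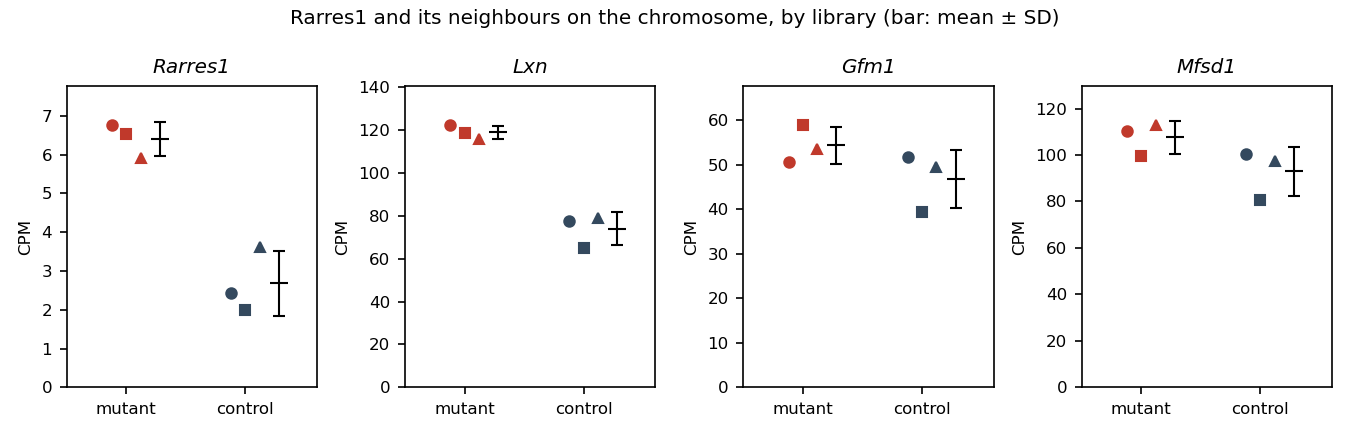
Level in CPM (y axes, from 0) of Rarres1, its relative Lxn and the nearest neighbours Gfm1 and Mfsd1 by library, mutants in red on the left and controls in dark blue on the right, with mean ± SD bars (n = 3 each). The groups are apart for Rarres1 and Lxn and overlap for Gfm1 and Mfsd1.

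Levels of different genes were compared per kilobase of exon. The order in the mutants was Rara at 37.6 ± 1.79, Ncor1 at 23.0 ± 0.500, Rxra at 20.8 ± 0.816, Rarg at 19.3 ± 0.841, Rxrb at 14.3 ± 0.313, Nrip1 at 6.24 ± 0.406, Rarres1 at 4.83 ± 0.333, Rarb at 1.85 ± 0.173 and Rxrg at 0.0312 ± 0.00988 CPM per kilobase (SD, n = 3). The order in the controls was Rara at 39.8 ± 4.90, Rarg at 25.1 ± 0.353, Ncor1 at 24.6 ± 1.14, Rxra at 20.5 ± 0.825, Rxrb at 14.0 ± 0.457, Nrip1 at 6.06 ± 0.291, Rarb at 2.62 ± 0.460, Rarres1 at 2.02 ± 0.634 and Rxrg at 0.0719 ± 0.0443 CPM per kilobase (SD, n = 3). Rarg and Ncor1 overlapped in the controls, as did Rarb and Rarres1. In the mutants every neighbouring pair in the order was apart. Exon length was the union over all annotated transcripts, so genes with long rare exons are understated.

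**Figure D5:**
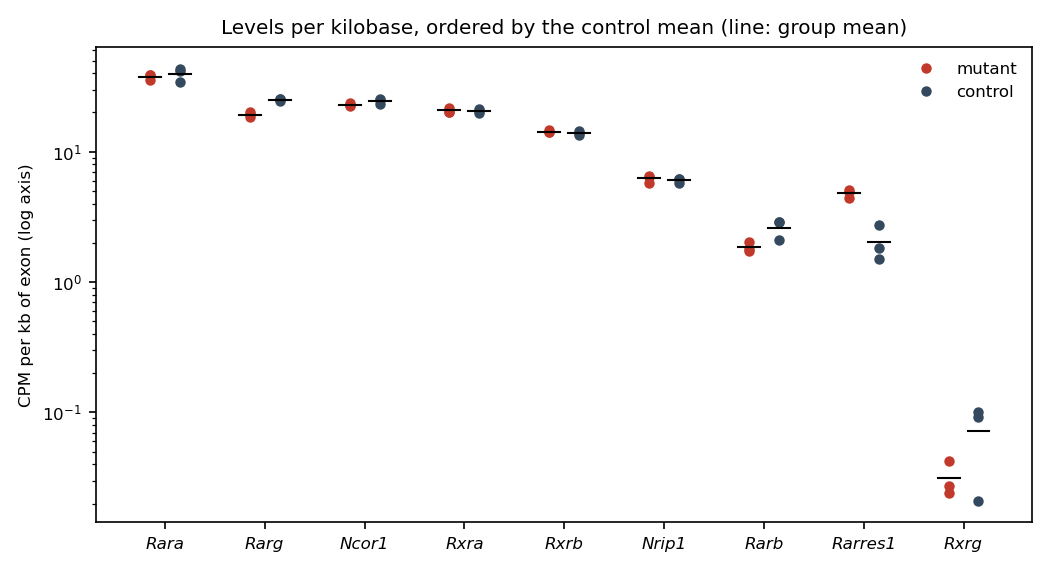
Level per kilobase of exon (y axis, log scale) of the 9 genes, ordered by the control mean, with mutant libraries in red left of control libraries in dark blue and the group means as lines (n = 3 each). Rara is highest in both groups, Rarres1 stands above Rarb in the mutants and overlaps it in the controls.

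The other genes of the pathway gave few calls. Of 20 genes of retinoid transport, synthesis and breakdown, 15 were tested, and of these 0 rose, 1 fell and 14 did not pass. At an unadjusted p under 0.05 there were 2 of the 15, where 14.0% of all tested genes were, a share near that background. Their median log2 fold change was 0.11, against -0.0024 over all tested genes, of which 1.93% rose and 1.34% fell. The gene that fell was Cyp26b1, which encodes an enzyme that degrades retinoic acid. Cyp26b1 measured 20.4, 17.0 and 26.1 CPM in mutant replicates 1, 2 and 3, against 69.5, 60.6 and 85.6 CPM in control replicates 1, 2 and 3, with the groups far apart (log2 fold change -1.76, edgeR adjusted p = 0.00124). Dhrs3, a retinaldehyde reductase gene induced by retinoic acid, stood at 45.9 ± 0.571 CPM in mutant and 53.7 ± 3.77 CPM in control libraries (SD, n = 3 each, adjusted p = 0.306).

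Of 21 genes known to respond to retinoic acid, 4 of the 9 among them, 17 were tested, and 1 rose, 2 fell and 14 did not pass, with a median log2 fold change of 0.02. Over all tested genes 1.93% rose and 1.34% fell. An edgeR unadjusted p under 0.05 was reached by 5 of the 17, against 14.0% of all tested genes. The groups did not overlap for 5 of the 17, against 20.6%. The riser was Rarres1, itself among the 9 genes and known for this response in human cells. Cyp26b1, already counted above, and Meis1 fell, so that genes of this list moved in both directions. Meis1, a homeobox gene, measured 54.0, 49.0 and 56.3 CPM in mutant replicates 1, 2 and 3, against 74.0, 67.6 and 75.8 CPM in control replicates 1, 2 and 3, with no overlap. Its log2 fold change was -0.45 (edgeR adjusted p = 0.0324), and its call ended with sex as a covariate (0.0528) and in all fits without a library except that without control replicate 2, with an adjusted p of up to 0.152.

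Corepressors, coactivators and partner receptors gave no call. Of 13 corepressor genes, Ncor1 and Nrip1 among them, 13 were tested and 0 were called by edgeR or had an unadjusted p under 0.05, with a median log2 fold change of -0.01. Those with the smallest p were Ctbp1, at 240.4 ± 15.2 CPM in mutant and 218 ± 16.6 CPM in control libraries, and Hdac1, at 147 ± 8.95 CPM in mutant and 133 ± 17.9 CPM in control libraries (SD, n = 3 each). Of 12 coactivator genes 0 were called by edgeR and 3 had an unadjusted p under 0.05, where 14.0% of all tested genes did, with a median of -0.09. The groups did not overlap for 5 of the 12, against 20.6% of all tested genes. A negative log2 fold change was found for 9 of the 12, against 7535 of all 14934 tested genes. Ncoa2 and Ncoa3, which encode p160 coactivators of nuclear receptors, had the smallest p. Ncoa2 averaged 118 ± 7.48 CPM in mutant and 144 ± 8.75 CPM in control libraries, and Ncoa3 averaged 121 ± 3.63 CPM in mutant and 144 ± 10.4 CPM in control libraries (SD, n = 3 each, edgeR adjusted p = 0.144 and 0.184). Of 13 partner receptors of RXR 11 were tested and 0 were called by edgeR or had an unadjusted p under 0.05, with a median of -0.11. The smallest p there were those of the orphan receptor genes Nr4a1, at 477 ± 52.6 CPM in mutant and 579 ± 89.5 CPM in control libraries, and Nr4a2, at 73.7 ± 12.2 CPM in mutant and 101 ± 30.6 CPM in control libraries (SD, n = 3 each). DESeq2 and limma-voom also called 0 genes of these 3 lists.

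For the 2 called genes, the genes with the most similar pattern over the 6 libraries were taken by the smallest root-mean-square difference in log2(CPM + 0.5), each gene taken relative to its mean in the controls, among 10382 and 10383 named protein-coding genes with a mean of at least 8 CPM. Nearest to Rarg were Tgfbr3, the TGF-beta co-receptor betaglycan, with a difference of 0.042, Susd2, a membrane protein gene, with 0.042, and Sema3f, a secreted semaphorin, with 0.049 on the log2 scale. None of these 3 passed the test (edgeR adjusted p = 0.0532, 0.149 and 0.0584). Nearest to Rarres1 were Cd109, which encodes a TGF-beta co-receptor, with 0.12, Masp1, a complement protease gene, with 0.14, and Tmem255a, a membrane protein gene, with 0.14. All 3 were higher in the mutants, which follows from their choice by closeness to Rarres1 and is no separate result. Cd109 stood at 129 ± 8.69 CPM in mutant and 54.8 ± 8.24 CPM in control libraries (SD, n = 3 each, edgeR adjusted p = 0.000604). Masp1 had a log2 fold change of 1.22 and Tmem255a of 1.06.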

How the data were processed

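The deposited values are raw whole-number counts per gene symbol, which the authors deposited in separate and joined form (0 values differed between these). Per the submitters' processing notes the build was mm10, and DESeq2 is named with no version or role. The aligner, counter, annotation and strand setting are unknown here. Reads with no feature (53.9% to 58.2% of each library) and ambiguous reads (0.288% to 0.366%) were left out. A floor of 3 counts is 0.140 to 0.214 CPM and covers counting error only. Groups came from sample titles.

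For this comparison edgeR 4.0.16 (R 4.3.3) was run with filterByExpr, TMM factors, the robust quasi-likelihood F test over 14934 genes, Benjamini-Hochberg adjustment, calls under 0.05, and 95% intervals from the SE (log2 fold change over the square root of F) and the moderated degrees of freedom. The fits were tested on simulated data. Replicates of a group differed by more than sampling noise (chi-square per degree of freedom at least 12.3). Alternatives were DESeq2 1.42.0, limma-voom 3.58.1, other scaling, no filter, a left-out library, a replicate block and sex (2 female and 1 male library in each group, read from Xist and Y-linked genes). Gene models are GENCODE M21 and promoters RefSeq GRCm38.p6, the assembly of mm10, and all 9 genes matched both. The 9 genes and the lists were chosen with earlier results of these data known. The genes that could be named were the 9, Smad4, from each list called genes or those with the smallest p, the 3 genes of nearest pattern, and neighbours. Outside that rule, Lxn, Top2b, Prox1, Flt4, Pdpn and Ccl21a were named after their values were seen.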

Additional observations from a re-analysis of the deposited data

How the results depend on the processing

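Of 104 values of the 8 tested genes under 13 alternatives, 91 kept direction and side of the threshold, 11 (8 for Rarg, 3 for Rarres1) lost the call and 2 changed sign. Those were Rxra without mutant replicate 2 (-0.013) and control replicate 2 (-0.010), in a range over left-out libraries of -0.013 to 0.049 (0.02 with all). DESeq2 called 755 genes (443 higher, 312 lower), against 488 (288 higher, 200 lower) by edgeR. Without 1 library edgeR called 211 to 428 genes, with 131 to 257 higher and 80 to 204 lower, and 0 to 1 of the 9 genes against 2. It called 0 of the 9 without mutant replicate 1, mutant replicate 2 or control replicate 2. With the replicate block 1 of the 9 was called (466 genes in all, Rarg at an adjusted p of 0.0733), and with sex as a covariate 1. In both cases the lost call was Rarg. The list of genes responsive to retinoic acid had 3 calls, and 1 without mutant replicate 1 or 2. Partner receptors of RXR had 0 calls, and 1 without control replicate 1. The cause of these shifts was not tested. Whether the replicate numbers pair the samples is not known. Same-numbered deviations from the group means correlated at -0.0149, 0.0156 and 0.198, the last being the highest of any mutant and control pair. Mutant replicate 2 correlated best with control replicate 1 (0.135). Deviations from a mean of 3 libraries are tied to each other, so these correlations cannot decide it. With the block the log2 fold change of Rarg was -0.38 (SE 0.0981). Upper-quartile scaling moved the median of all genes to -0.017, too little to turn a direction. Low depth limits Rxrg, with 4 counts over the mutant and 9 over the control libraries.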
